A study of Mus musculus with 14 samples.

Results

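A set of 10 genes of the inflammasome and interleukin 1 system was described in the liver RNA of male Apoe-deficient C57BL/6 mice that consumed a Western diet without or with 10 mg/kg of erythrodiol. The genes were Il1a, Il1b, Il1rn, Il1r1, Il1rap, Il18bp, Nlrp3, Pycard, Casp1 and Gsdmd. They were taken by symbol from the 17552 genes of the deposited table, as a list drawn up with earlier results of these data known, and all 10 passed a minimum of 20 counts over both groups, as did 14867 genes in all, called the genes tested here.

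All mice, controls included, lacked apolipoprotein E, a ligand for the uptake of lipoproteins, and are prone to fatty liver and raised plasma cholesterol. The labels give an age of 8 weeks and 8 weeks of diet, whereas the methods of the study give 12 weeks of diet. The Western diet held 0.15% cholesterol and 20% palm oil, and erythrodiol, a pentacyclic triterpene alcohol of the olive, was mixed in at 0.01% of the diet. RNA of 14 control mice and of 15 erythrodiol mice was combined into 7 pools per group. Of the control pools, 6 held 2 mice and 1 held 3, and the erythrodiol pools held 2 or 3 mice each. The methods thus give the control pools 1 mouse more than the 14 they count. Each pool was sequenced as 1 library from poly-A RNA in paired-end mode.

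Gene values were 1 estimated count per gene and group, the sum over the 7 libraries of that group. Control sums totalled 122889032 counts, and erythrodiol sums 124686047. No gene therefore had a value per library, and how evenly a sum was spread over the pools is not known. No test between the groups was possible. Ratios are given with 95% intervals that cover counting error only and leave out the differences between animals and pools. Control libraries held 34856340 to 55244294 clean reads and erythrodiol libraries 47669656 to 48058606, so that single libraries made up between 9.12% and 17.3% of the mapped pairs of the control sum and between 13.9% and 14.6% of those of the erythrodiol sum. Apoe itself was counted 9403 and 8293 times in control and erythrodiol, and the part of the gene from which these came was not analysed here. The hepatocyte markers were at 105272 and 106434 CPM (counts per 1000000 of the group total) in all, with Alb, serum albumin, the highest of them, so that the defining markers of liver were present.

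Inflammasomes are protein platforms that form in the cytosol of macrophages, neutrophils and other cells upon microbial products, crystals or cell damage. A sensor such as NLRP3 recruits the adaptor ASC, the product of Pycard, which in turn recruits the protease caspase-1. Caspase-1 cuts the precursors of interleukin 1 beta and interleukin 18 into active cytokines and cuts gasdermin D, which then forms pores in the plasma membrane. Interleukin 1 alpha and beta signal through the receptor IL1R1 with its partner IL1RAP, and this signal is restrained by the receptor antagonist IL1RN, while IL18BP captures interleukin 18. In liver, Kupffer cells, recruited monocytes and neutrophils are the usual sources of interleukin 1 beta, and hepatocytes respond to it by secreting acute-phase proteins. The assembly of inflammasomes and the cleavage of interleukin 1 beta, interleukin 18 and gasdermin D are steps that RNA counts do not measure.

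Promoter windows of 250 bases before the transcription start were read from RefSeq on GRCm38.p6 for 9 of the 10 genes, with 13 starts among them, and Gsdmd had no entry. The windows of Il1b and Pycard are shown because these genes had the lowest erythrodiol to control ratios of the 10, those of Casp1 and Il1rn because they are the protease that Pycard recruits and the antagonist that opposes Il1b. Capitals mark matches, on either strand, to 4 motifs: TATAA (TATA box), the kappaB motif (GGG and CC with any 5 bases between), GAGGAA (PU.1, a factor of myeloid cells) and TTGCNNAA (C/EBP). Each sequence reads 5′ to 3′ on the strand of the gene and ends at the base before a transcript start, which for Il1b lies inside the outer limit of the gene printed with its values, so that the end of its window overlaps the gene. The same holds for some windows that are not printed, among them that of Il1a.
Il1b, chr2:129371140-129371389, minus strand: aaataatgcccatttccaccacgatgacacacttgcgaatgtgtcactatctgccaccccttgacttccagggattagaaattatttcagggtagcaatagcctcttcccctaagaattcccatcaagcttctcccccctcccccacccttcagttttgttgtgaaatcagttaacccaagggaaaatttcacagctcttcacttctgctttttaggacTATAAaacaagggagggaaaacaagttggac
Pycard, chr7:127993868-127994117, minus strand: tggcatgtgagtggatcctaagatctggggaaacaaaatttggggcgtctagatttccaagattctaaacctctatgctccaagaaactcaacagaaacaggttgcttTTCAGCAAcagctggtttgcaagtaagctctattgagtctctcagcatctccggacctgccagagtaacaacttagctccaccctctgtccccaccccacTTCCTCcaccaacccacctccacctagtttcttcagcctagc
Casp1, chr9:5298267-5298516, plus strand: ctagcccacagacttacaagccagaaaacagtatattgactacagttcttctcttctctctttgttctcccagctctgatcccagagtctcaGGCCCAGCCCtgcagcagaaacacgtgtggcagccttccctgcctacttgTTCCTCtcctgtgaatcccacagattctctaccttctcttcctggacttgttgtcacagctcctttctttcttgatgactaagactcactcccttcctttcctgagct
Il1rn, chr2:24336610-24336859, plus strand: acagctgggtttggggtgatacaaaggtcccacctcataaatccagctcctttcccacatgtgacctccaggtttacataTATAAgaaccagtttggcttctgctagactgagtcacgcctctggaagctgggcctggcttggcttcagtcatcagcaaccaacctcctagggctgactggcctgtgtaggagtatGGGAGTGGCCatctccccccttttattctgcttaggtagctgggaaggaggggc

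The window of Il1b held a TATAA from 31 to 27 bases before the start and no match to the other 3 motifs. Il1a, whose window is not printed, likewise held TATAA from 32 to 28 bases before its start, together with GAGGAA 41 bases before it. Pycard held, on the strand opposite to the gene, GAGGAA from 42 to 37 bases before the start and TTGCNNAA from 142 bases before it. Casp1 held, also on the opposite strand, GAGGAA from 108 bases and the kappaB motif from 158 bases before the start, and Il1rn held TATAA from 170 bases and the kappaB motif from 54 bases before the first of its 3 starts. GAGGAA was thus found in Il1a, Pycard, Casp1 and Nlrp3, in 4 of the 13 windows, beside 23.3% of all 32851 promoter windows of the same length. TATAA was found in 4 of the 13 and 22.8% of all windows, the kappaB motif in 6 and 45.8%, and TTGCNNAA in 3 and 9.56%. The kappaB matches of Il1rap overlapped one another, as this pattern can match both strands of the same bases. A match of letters is a description and not a bound site.

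The adaptor and 1 ligand were lower with erythrodiol by more than 1.5-fold, Pycard at 0.478 and Il1b at 0.592 of the control level, whereas the receptor chains and the pore protein lay between 1.06 and 1.15 of it. Of the 10 genes, 2 were at least 1.5-fold lower, against 4.52% of the 14867 genes tested, and 0 were at least 1.5-fold higher, against 4.08%. Of the 10, 7 had a log2 ratio below 0, against 31.0% of the genes tested. The median log2 ratio of the 10 genes was −0.19, beside 0.15 for all genes tested, and 9 of the 10 lay below that median. In bulk liver, fewer cells of a type and less RNA per cell cannot be told apart.

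**Figure D1:**
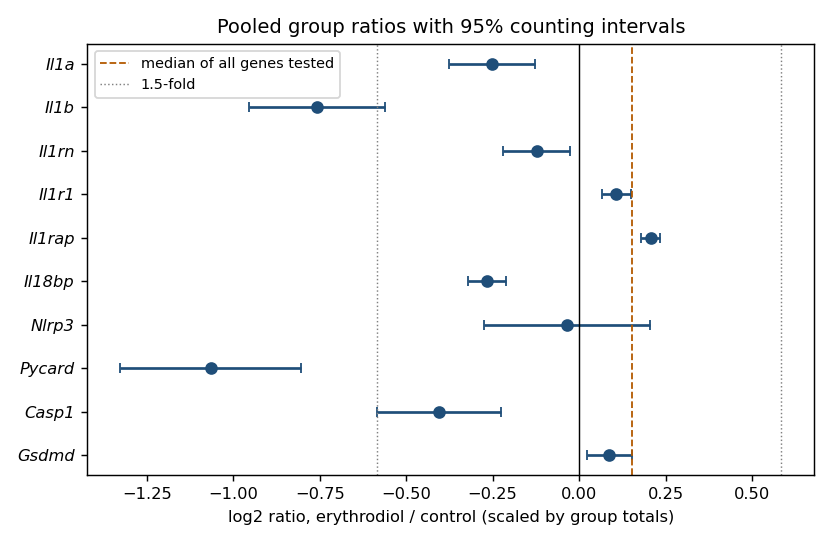
Log2 ratio of erythrodiol to control for the 10 genes, from the 2 group sums scaled by the group totals. Points are the ratios, bars the 95% counting intervals, the dashed line the median of all genes tested at 0.15 and the dotted lines a 1.5-fold difference. Pycard at −1.06 and Il1b at −0.76 lie beyond the dotted line on the left, and only Il1rap at 0.21 lies to the right of the dashed line.

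Among the ligands, Il1b, which encodes the form of interleukin 1 that caspase-1 activates (RefSeq gene on chr2:129364569-129371164 of GRCm38.p6, minus strand), had 563 counts in the control sum and 338 in the erythrodiol sum. The erythrodiol value was 0.592 of the control value (0.516 to 0.678), a log2 ratio of −0.76 (−0.96 to −0.56). This was percentile 2.52 of all genes tested, and percentile 0.958 of the 835 genes with like counts, whose median was 0.10. Il1b was thus well toward the low end both of all genes and of genes with similar counting error.

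Il1a, on chr2:129299609-129310186 (minus strand), encodes interleukin 1 alpha, which is active without that cleavage and acts as an alarm signal of damaged cells. It had 1134 control and 966 erythrodiol counts, a log2 ratio of −0.25 (−0.38 to −0.13) at percentile 13.98. Il1rn, on chr2:24336860-24351491 (plus strand), encodes the antagonist that occupies the receptor without signalling. Its counts were 1775 and 1654, a log2 ratio of −0.12 (−0.22 to −0.03) at percentile 21.1. Relative to the median gene (with the groups scaled by the median ratio of genes with at least 100 counts), Il1rn was at −0.28 and Il1a at −0.41, and relative to genes of like length at −0.27 and −0.36. All 3 lie on chromosome 2, and the order of their ratios was Il1b lowest, then Il1a, then Il1rn.

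The ligands did not differ from the control by the same amount. Counts of Il1rn per count of Il1b were 3.15 in the control and 4.89 with erythrodiol, a log2 difference of 0.63 (0.42 to 0.85). The ratio of Il1a to Il1b was 2.01 in the control and 2.86 with erythrodiol, a log2 difference of 0.50 (0.27 to 0.74). Such a ratio within a group does not depend on a scaling factor that all genes of the group share, and both intervals lie above 0. It does depend on a scaling by gene length. Relative to genes of like length, Il1b was at −0.74, Il1a at −0.36 and Il1rn at −0.27, so that they lay closer together than by totals. Each ratio still compares 2 pooled sums.

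Among the receptor genes, Il1r1, on chr1:40222480-40316201 (plus strand), encodes the chain that binds both ligands. It had 8474 control and 9264 erythrodiol counts, a log2 ratio of 0.11 (0.06 to 0.15) at percentile 43.9. Il1rap, on chr16:26581509-26730128 (plus strand), encodes the accessory chain that interleukin 1, interleukin 33 and interleukin 36 receptors share. Its counts were 19801 and 23196, a log2 ratio of 0.21 (0.18 to 0.23) at percentile 57.4, the highest ratio of the 10 genes. Both intervals lie above 0, yet Il1r1 lay below the median of all genes and its ratio was −0.05 once the groups were scaled to that median, while Il1rap was at 0.05 on that scale.

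Il18bp, on chr7:102015074-102018232 (minus strand), encodes the soluble decoy of interleukin 18. It had 5878 control and 4959 erythrodiol counts, a log2 ratio of −0.27 (−0.32 to −0.21) at percentile 13.4, and −0.43 relative to the median gene. Its cytokine Il18 had 1611 counts and 1352, a log2 ratio of −0.27 (−0.38 to −0.17). The counts of Il18 per count of Il18bp were 0.274 and 0.273, a log2 difference of −0.01 (−0.13 to 0.11), so that a difference in this ratio was not detectable beyond counting error. Il18bp overlaps the opposite-strand gene Numa1 by 80 bases, and whether the counting used strand is not stated. Numa1 had 7469 counts and 10012, so that it was higher where Il18bp was lower.

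Among the inflammasome genes, Pycard, on chr7:127991373-127993867 (minus strand), had the lowest ratio of the 10. Its counts were 377 in the control and 183 with erythrodiol, which is 0.478 of the control value (0.399 to 0.572) and a log2 ratio of −1.06 (−1.33 to −0.81). It lay at percentile 1.09 of all genes tested and at percentile 1.07 of the 657 genes with like counts, whose median was 0.08. Pycard was the only 1 of the 10 past 2-fold, against 1.24% of all genes that were at least 2-fold lower.

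Casp1, on chr9:5298517-5307281 (plus strand), encodes caspase-1. It had 590 counts and 452, which is 0.755 of the control value (0.667 to 0.855) and a log2 ratio of −0.41 (−0.59 to −0.23) at percentile 8.42. The counts of Pycard per count of Casp1 were 0.639 and 0.405, a log2 difference of −0.66 (−0.97 to −0.35). The adaptor was therefore lower than the protease it recruits by more than the counting error of both.

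Nlrp3, on chr11:59541569-59566955 (plus strand), encodes the sensor and had the fewest counts of the 10 per length. Its counts were 290 and 287, a log2 ratio of −0.04 (−0.28 to 0.20) at percentile 27.8. This interval holds both 0 and the median of all genes. The ratio was −0.20 (−0.44 to 0.04) relative to the median gene and −0.27 (−0.51 to −0.03) relative to genes of like length, so that whether the interval holds 0 depended on the scale. Gsdmd, on chr15:75862144-75867408 (plus strand), encodes gasdermin D. It had 3606 counts and 3888, a log2 ratio of 0.09 (0.02 to 0.15) at percentile 41.3, and −0.07 when scaled to the median of all genes. On each of these scales the sensor and the pore protein lay within 1.5-fold of the control, while the adaptor between them did not.

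Levels were set side by side per length, as counts per kilobase of the gene length in the deposited table, scaled to the same sum in each group. In the control group, Il1rap was the highest at 98.4, followed by Il18bp at 55.8, Gsdmd at 27.2, Il1r1 at 24.4, Il1rn at 9.64, Il1a at 7.51, Il1b at 5.28, Casp1 at 5.15, Pycard at 2.36 and Nlrp3 at 0.968. Il1rap exceeded 93.0% of the genes tested and Nlrp3 22.4% of them. The neighbours Il1b and Casp1 did not differ beyond counting error, with a log2 difference of 0.04 (−0.13 to 0.20), and every other pair of neighbours did. Decoy and receptor genes thus stood well above the ligands, and the ligands above the sensor and adaptor.

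With erythrodiol the same genes held the first 6 places, and Il1b and Casp1 exchanged theirs, at 3.47 and 4.32, a log2 difference of −0.31 (−0.52 to −0.11). Pycard at 1.26 and Nlrp3 at 1.05 no longer differed beyond counting error, with a log2 difference of 0.26 (−0.01 to 0.53), while the control difference was 1.29 (1.07 to 1.51). Counts of Nlrp3 per count of Pycard were 0.769 in the control and 1.57 with erythrodiol, a log2 difference of 1.03 (0.68 to 1.37).

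**Figure D2:**
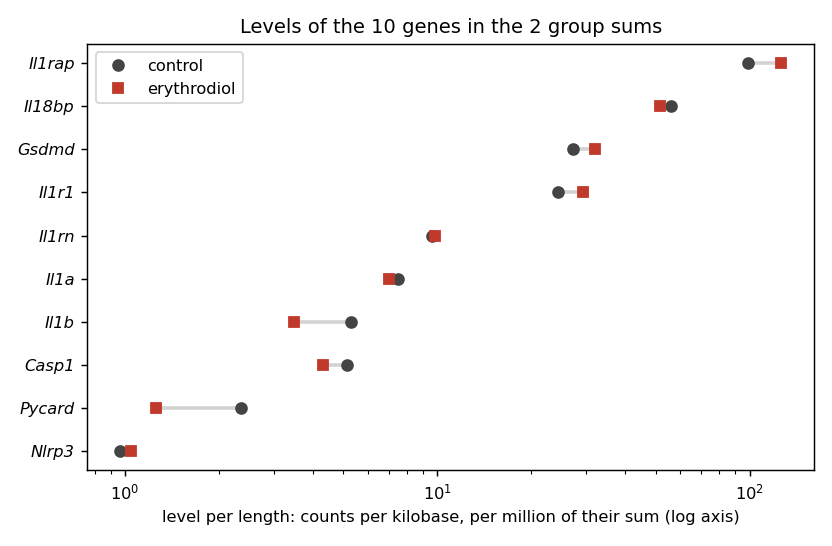
Level per length of each of the 10 genes in the control sum (circles) and the erythrodiol sum (squares), on a log axis, in counts per kilobase scaled to the same sum in each group. The order runs from Il1rap at 98.4 to Nlrp3 at 0.968 in the control. All erythrodiol levels on this scale lie 0.15 (log2) above what the count ratios give, since the scale depends on the lengths of all genes, so that it serves to order genes within a group.

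The direction of the genes near 0 depended on the scale. The median of the 13291 genes with at least 100 counts lay at 0.16 (log2) when the groups were scaled by their totals, and ratios moved with gene length, from a median of −0.30 in the shortest to 0.35 in the longest of 20 length classes. Relative to the median gene, Pycard was at −1.23, Il1b at −0.92 and Casp1 at −0.57, and on that scale 7.96% of all genes tested were at least 1.5-fold lower, 2.03% at least 1.5-fold higher and 51.1% were below 0. Relative to genes of like length they were at −1.19, −0.74 and −0.45. These 3 genes were lower on each of these scales, whereas Il1r1 at −0.14 and Gsdmd at 0.02 among genes of like length had no stable direction.

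Markers of myeloid cells were lower with erythrodiol in the same sums. Of 12 Kupffer cell markers, 11 had a log2 ratio below 0, 6 were at least 1.5-fold lower and 0 higher, with a median of −0.54. Among all genes tested, 31.0% were below 0, 4.52% at least 1.5-fold lower and 4.08% at least 1.5-fold higher. The other marker lists stand beside the same shares. Their summed level was 1435 CPM in the control and 971 with erythrodiol. The lowest were Marco, a scavenger receptor, with 6374 and 3086 counts (−1.07), Adgre1, which encodes F4/80, with 5786 and 3487 (−0.75), and Cd5l, a secreted macrophage protein, with 65371 and 40760 (−0.70). The highest were Cd68 at 0.04, Csf1r at −0.17 and Folr2 at −0.32. Relative to genes of like length the median of the list was again −0.54. On that scale C1qa at −0.54 and Vsig4 at −0.57, both past the limit by totals, lay within 1.5-fold. None of the markers in this list or the others was at 0 in a group.

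Of 10 markers of recruited macrophages and monocytes, all 10 were below 0 and 4 were at least 1.5-fold lower, with a median of −0.39 and a summed level of 531 and 370 CPM. Plac8 at −0.98, Lyz2, which encodes lysozyme, at −0.62 and Ly6c2 at −0.61 were the lowest, and Itgax at −0.08, Cd9 at −0.12 and Itgam at −0.21 the highest. Relative to genes of like length the median of the list was −0.46 and Plac8 was at −0.68. On that scale Lyz2 at −0.56, Spp1 at −0.58 and Ly6c2 at −0.30, all past the limit by totals, lay within 1.5-fold. Of 13 neutrophil markers, 11 had at least 20 counts, and of these 6 were at least 1.5-fold lower and 0 higher, with a median of −0.65. Their summed level was 23.0 and 17.7 CPM. Among the 6 lower markers, Elane had 24 and 14 counts, at −0.80 (−1.86 to 0.21), and Mmp8 had 45 and 29, at −0.65 (−1.38 to 0.05). Both of these intervals held 0. Ltf, with 59 and 16 counts, and Ngp, with 36 and 19, had intervals below 0. Relative to genes of like length the median of the list was −0.74. The calprotectin genes S100a8, with 411 and 183 counts, and S100a9, with 702 and 329, were at −1.19 and −1.11, while the receptors Csf3r and Cxcr2 were at 0.01 and 0.38 and the protease Mmp9 at −0.06. Over the neutrophil markers with at least 100 counts the median was −0.06, and the summed list was at −0.38 (−0.47 to −0.30).

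Of 11 lymphocyte, 8 endothelial and 7 stellate cell markers, 0 were past 1.5-fold in either direction, with medians of −0.12, 0.09 and 0.04. Among all genes tested, 4.52% were at least 1.5-fold lower and 4.08% higher, so that 0 does not set lists this short apart. Among the lymphocyte markers, Ms4a1 was at −0.50, Cd3g at −0.46 and Cd3d at −0.45, while Cd4 was at 0.15 and Cd3e at 0.18. Endothelial markers ran from −0.26 for Clec4g, −0.10 for Fcgr2b and −0.06 for Lyve1 to 0.17 for Stab2, 0.28 for Stab1 and 0.33 for Kdr. Stellate cell markers ran from −0.17 for Dcn, −0.15 for Lrat and −0.12 for Col3a1 to 0.04 for Col1a1, 0.19 for Pdgfrb and 0.19 for Reln. These lists had genes on both sides of 0. Relative to the median gene the endothelial and stellate medians turned to −0.07 and −0.13, and the lymphocyte median was −0.28. Of 5 bile duct markers, 2 were at least 1.5-fold lower, with a median of −0.55 and a summed level of 116 and 79.1 CPM, and 1 of these, Spp1, also stood in the list of recruited macrophages and held 12503 of the 14309 control counts of the list. Krt19, a keratin of bile duct cells, was at −0.89, Epcam at −0.55, Krt7 at −0.29 and Sox9 at −0.09. Of 8 hepatocyte markers, 0 were past 1.5-fold, with a median of 0.20. They ran from −0.06 for Alb, 0.14 for Apoa1 and 0.16 for Serpina1a to 0.35 for Apob, 0.36 for Cps1 and 0.38 for Tat. The part of these cell types in the ratios of the inflammasome and interleukin 1 genes was not tested.

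Set against the summed Kupffer markers, the 10 genes separated. Pycard remained lower, at −0.50 (−0.76 to −0.25), Il1b was at −0.19 (−0.39 to 0.00) and Casp1 at 0.16 (−0.02 to 0.33), while the other 7 lay above 0, from 0.30 for Il18bp to 0.77 for Il1rap. Against the summed markers of recruited macrophages and monocytes, Pycard was at −0.54 (−0.80 to −0.29), Il1b at −0.24 (−0.43 to −0.04) and Casp1 at 0.12 (−0.06 to 0.29). Against the summed neutrophil markers, Pycard was at −0.68 (−0.95 to −0.41), Il1b at −0.37 (−0.58 to −0.16) and Casp1 at −0.02 (−0.22 to 0.17). Pycard was thus the 1 gene with an interval below 0 against each of the 3 lists, Il1b had one against 2 of them, and Casp1 against none. The sums rest on few genes. In the control, Cd5l held 65371 of 176387 Kupffer counts, Lyz2 34731 of 65234 recruited cell counts and Csf3r 1156 of 2831 neutrophil counts. By totals, Marco at −1.07, S100a8 at −1.19 and S100a9 at −1.11 lay as low as Pycard, while the other Kupffer and all recruited cell markers lay higher. The neutrophil marker Ltf was lower still, at −1.90 (−2.80 to −1.09), from 59 and 16 counts. Relative to genes of like length, Marco was at −1.17, near Pycard at −1.19, while S100a8 at −0.88 and S100a9 at −0.81 lay above it. Whether Pycard was lower than the content of these cells was not tested.

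**Figure D3:**
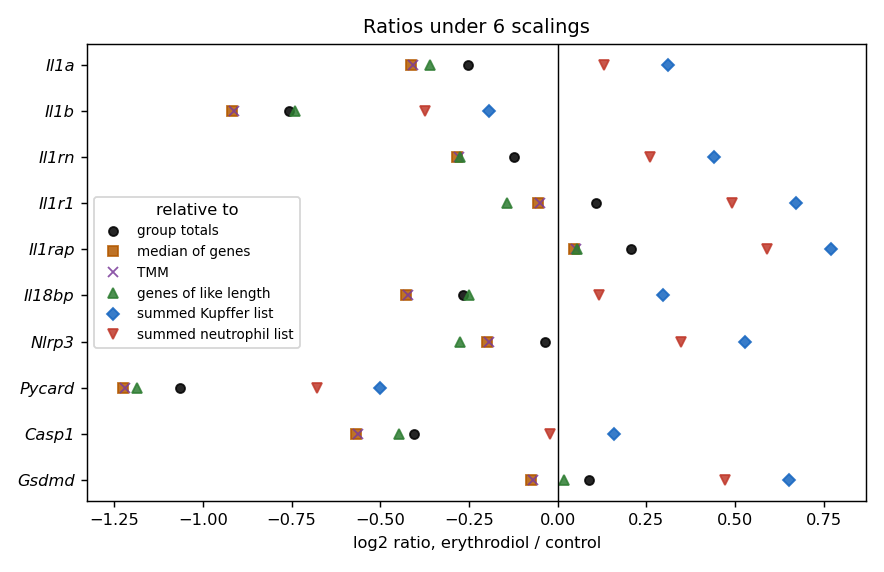
Log2 ratio of erythrodiol to control for the 10 genes relative to 6 references: group totals, the median gene, TMM (a trimmed mean of gene ratios), genes of like length, and the summed Kupffer and neutrophil lists. Pycard and Il1b stay left of 0 under all 6, between −1.23 and −0.50 and between −0.92 and −0.19. Il1a, Il1rn and Il18bp lie left of 0 under the first 4 and right of it against both marker lists.

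The other genes of the pathway were taken in 6 lists that include the 10. Their counts past 1.5-fold stand beside 4.52% of all genes tested that were lower and 4.08% that were higher. At these shares, 0 genes past the limit does not set so short a list apart. Of the interleukin 1 family ligands, 6 were in the table, and 1 of them, Il1b, was at least 1.5-fold lower and 0 higher, with a median of −0.19. Il1f9, the ligand interleukin 36 gamma, had 314 and 420 counts, a log2 ratio of 0.40 (0.18 to 0.61), and Il33, an alarm signal of stromal cells, 264 and 263, at −0.03. Il1f9 was thus the 1 ligand of the 6 above 0.

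Of 9 receptors and decoys, 8 had at least 20 counts and 0 were past 1.5-fold, with a median of −0.04 that was 0.11 with a minimum of 100 counts and −0.20 relative to the median gene. Il1rl2, the receptor of interleukin 36, had 90 counts and 65, at −0.49 (−0.97 to −0.01). Il18rap and Il18r1, the chains of the interleukin 18 receptor, were at −0.18 and 0.23, neither beyond counting error. Il1r2, the decoy receptor for interleukin 1, had 20 counts and 15, and Sigirr, an inhibitory receptor, 1343 and 1492, at 0.13. Il1rl1, the receptor of interleukin 33, had 6 counts and 7, and no ratio is drawn from them.

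Of 12 inflammasome sensors, 0 were past 1.5-fold, with a median of 0.10 that turned to −0.07 relative to the median gene and to −0.19 relative to genes of like length. Nlrp6, a sensor with high expression in gut and liver epithelium, had 16921 and 23036 counts, the highest ratio of the list at 0.42 (0.40 to 0.45). Nlrp12 was at 0.27 and Nlrp1b at 0.28, while Aim2, the sensor of cytosolic DNA, was at −0.09, Nlrc4 at −0.14 and Mefv, which encodes pyrin, at −0.20. Naip1, Naip2, Naip5 and Naip6 lay between −0.24 and 0.12, and reads of these near-identical genes may have been split between them by the counting.

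Of 14 genes for the adaptor, caspases, pores and triggers, Pycard and Panx1 were at least 1.5-fold lower and 0 were higher, with a median of −0.07. Panx1, a channel that releases ATP, had 135 counts and 91, at −0.59 (−0.99 to −0.20). Casp4, the caspase that senses cytosolic lipopolysaccharide, had 401 and 294, at −0.47 (−0.69 to −0.25). Card6 had 1716 and 2474, at 0.51 (0.42 to 0.60), the highest of the list. Casp8 was at 0.21, Txnip at 0.16 and Nek7, a partner of NLRP3, at 0.15. P2rx7, the ATP receptor, had 789 counts and 800. Pycard was the lowest of the 14.

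Of 16 genes of receptor signalling, 0 were past 1.5-fold, and 15 of the 16 were above 0, beside 69.0% of all genes tested, with a median of 0.27. Myd88, the adaptor of the receptor, was at 0.13, Chuk at 0.08 and Irak1, Ikbkg and Traf6 each at 0.34, and the inhibitor Irak3 was the 1 gene below 0, at −0.04. Relative to genes of like length the median of the list was 0.03, so that these genes lay near genes of like length.

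Of 19 NF-kB and interleukin 1 response genes, 18 had at least 20 counts, 4 were at least 1.5-fold lower and 0 were higher, with a median of −0.30. These were the acute-phase genes Saa1 and Saa2, the chemokine gene Cxcl1 and Ptgs2. Saa1 had 52221 control and 22566 erythrodiol counts, at −1.23 (−1.25 to −1.21), and its near-identical neighbour Saa2 was at −1.10, so that reads of the pair may have been split between them. Cxcl1, a chemokine for neutrophils, had 2569 and 1642, at −0.67 (−0.76 to −0.58). Ptgs2, an enzyme of prostaglandin synthesis, had 44 and 28, at −0.67 (−1.41 to 0.04), so that its interval held 0. Tnf, with 190 and 155 counts, was at −0.31, while Rela, Nfkbia and Nfkb1 were at 0.23, 0.20 and 0.15. Relative to the median gene, these subunits and this inhibitor of NF-kB lay at 0.07, 0.04 and −0.01, near that gene, and Saa1 at −1.39 and Cxcl1 at −0.83. Relative to genes of like length, Saa1 was at −0.93, Saa2 at −0.79 and Cxcl1 at −0.60.

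**Figure D4:**
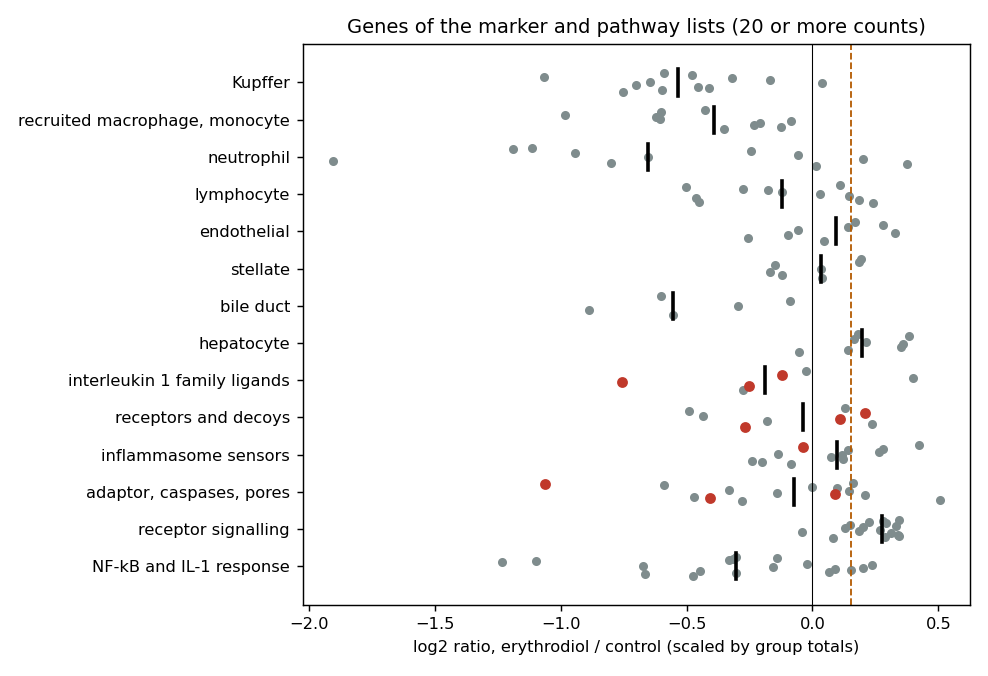
Log2 ratio of erythrodiol to control for each gene with at least 20 counts in 8 lists of cell type markers and 6 lists of pathway genes. Each point is 1 gene, red points are the 10 genes described here, black bars are list medians and the dashed line is the median of all genes tested at 0.15. Medians run from −0.65 for neutrophil markers to 0.27 for receptor signalling.

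Summed over the 10 genes, the counts were 42488 in the control and 45187 with erythrodiol, a log2 ratio of 0.07 (0.05 to 0.09). The sum is carried by Il1rap, and without it the counts were 22687 and 21991, at −0.07 (−0.09 to −0.04). By group totals, the sign of a summed score over these genes therefore depended on 1 receptor chain. It also depended on the scale, as the sum with Il1rap lay below the median gene, which was at 0.16 by totals.

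Counts of the 10 genes were whole numbers in both groups for all 10, beside 80.8% of all genes. An estimated count need not be whole where reads are shared between genes. In GENCODE M21, Il1a, Il1b, Il1rap and Pycard each overlap a non-coding or unclassified transcript on the opposite strand and Il1r1 one on the same strand. None of these 5 had a row in the count table.

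The authors' assembly added coding transcripts to 3 of the 10 genes, beside 28.5% of the 17552 genes in the table. Il1r1 gained 2, with 13 exons each, Il18bp gained 1 with 6 exons, and Gsdmd gained 1 with 11 exons. Reads of such transcripts entered the gene counts. No such transcript was listed for the other 7.

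The deposited list of splicing events that differ between the groups held 16 events, of which 0 were in the 10 genes and 1 was in the wider pathway, in Il18. This event is a pair of mutually exclusive exons on chromosome 9, plus strand, the first on chr9:50555903-50556053 (151 bases) and the second on chr9:50562062-50562134 (73 bases). Both lie between exons that GENCODE M21 annotates as 5′ untranslated. In the control libraries, 53 junction counts fell on the first exon and 27 on the second, so that the first took 66.2% (exact interval 54.8 to 76.4). With erythrodiol the counts were 50 and 3, or 94.3% (84.3 to 98.8). The event was listed because it differed, so that these shares are a description and were not tested.

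By library, the share of the first exon in the 7 control libraries ran from 33.3% through a median of 72.7% to 75%, and in the 7 erythrodiol libraries from 66.7% through a median of 100% to 100%. The groups overlapped, since 1 erythrodiol library lay within the control range. Every control library held 2 to 8 counts of the second exon, while 4 erythrodiol libraries held 0 and 3 held 1. The list does not name its libraries, and with 3 to 23 counts each they carry little precision.

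**Figure D5:**
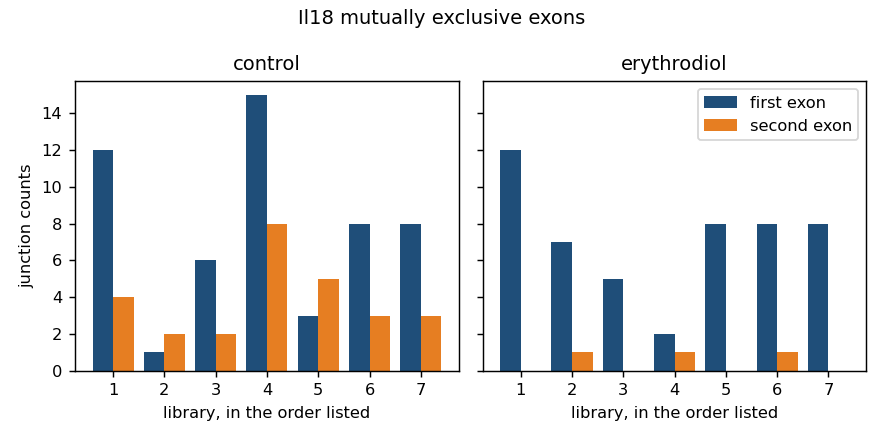
Junction counts of the first and second mutually exclusive exon of Il18 in the 7 control and 7 erythrodiol libraries, in the order in which the event lists them. The second exon has 2 to 8 counts in the control libraries and 0 or 1 in the erythrodiol libraries.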

How the data were processed

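Clean reads were mapped with HISAT, transcripts were assembled with StringTie and compared with Cufflinks, variants were called with GATK, and reads were counted on genes with Bowtie2 and RSEM, by the tools in the submitters' processing notes, with splicing events from rMATS in the methods. The authors deposited expected counts of genes as 1 sum per group over its 7 libraries, not normalized. Clean read counts per library and mapping rates in percent were deposited too, as were junction counts of splicing events. The authors' fold changes, p-values and q-values in the gene table were not used.

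Group sums were divided by the group totals, and ratios carry exact conditional (Clopper-Pearson) intervals at 95%, which cover counting error only. Differences between genes used a normal interval on the log2 scale. Genes with 20 or more counts over both groups were tested against a 1.5-fold limit. Other scalings were the median of genes with at least 100 counts, TMM, and the median of genes of like length in 20 classes. Other alternatives were fold limits of 2 and 1.25, a pseudocount of 1 and no minimum. The ratios to marker lists and the sum without Il1r1 and Il1rap were chosen after seeing the data. The design had foreseen gene counts per library with edgeR, which were not in the table used, so no test was made. Named were the 10 genes and, in each list, the 3 of highest and the 3 of lowest ratio with at least 100 counts, except for 1 gene that is not reported here. Aim2, C1qa, Elane, Il1r2, Il1rl1, Ltf, Mmp8, Nek7 and Ngp were named after their values were seen. So were P2rx7, Ptgs2, Tnf, Numa1, Vsig4 and Naip genes other than Naip1. The members and the lists were chosen with earlier results of these data known.

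Genes were matched by symbol to RefSeq on GRCm38.p6, and like-count genes are those whose total lay within 1.25-fold. Motifs were searched on both strands. The computation was tested on simulated data. Scripts ran in Python 3.11.15 with pandas 2.3.3 and numpy 2.4.6, intervals came from scipy 1.17.1, and plots from matplotlib 3.10.9.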

Additional observations from a re-analysis of the deposited data

Results flagged for a closer look

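The values per library were checked for a library far from its group, in 10 groups of 7, of which chance picks out about 1 in 20. The lowest control library mapped 64.33% of its clean reads to genes, beside a median of 75.3% and a highest value of 81.43% in that group. Its distance to the next library was 0.588 of the range of the group. This library held 9.12% of the mapped pairs behind the control sums of the inflammasome and interleukin 1 genes, and no gene counts without it were analysed here. In the Il18 event, 1 erythrodiol library had 66.7% of its junction counts on the first exon, from 2 and 1 counts, while the other 6 held 87.5% or more, a distance of 0.625 of the range.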

How the results depend on the processing

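No paired analysis was possible because the gene counts are sums over the libraries of a group. For the same reason the planned edgeR fit was not run, nor was a DESeq2 fit or the omission of single libraries. The median log2 ratio of the 10 genes was −0.19 by totals, −0.35 by the median gene and −0.34 by TMM. At a fold limit of 2, 1 gene was lower in place of 2. The summed counts had a log2 ratio of 0.07, −0.0659 without Il1rap and −0.18 without Il1r1 and Il1rap. Il1r1 reversed to −0.0543 by the median gene, to −0.0487 by TMM and to −0.14 by genes of like length, and Gsdmd to −0.0743 by the median gene and to −0.0686 by TMM. Relative to the summed Kupffer markers, Il1a was at 0.31, Il1rn at 0.44, Il18bp at 0.30 and Casp1 at 0.16. Relative to recruited macrophage and monocyte markers they were at 0.27, 0.40, 0.26 and 0.12. Relative to neutrophil markers, Il1a was at 0.13, Il1rn at 0.26 and Il18bp at 0.12. A pseudocount of 1 and scaling to hepatocyte markers moved no ratio of the 10 beyond its counting interval. Depth limits Pycard most among the 10, with 377 and 183 counts, and next Nlrp3, with 290 and 287.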
